A study of Mus musculus with 12 samples.

Results

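The genes described here are the tumour suppressor *Trp53*, *Mdm2*, whose product holds the *Trp53* protein low, and other genes tied to growth arrest. The latter are *Cdkn1a*, *Ccng1*, *Ccng2*, *Gadd45a*, *Gadd45b*, *Gadd45g*, *Sesn1* and *Ddit4*, linked to *Trp53* or to related stress signals that slow cell growth. All 10 genes were taken by symbol from a liver RNAseq table of 48795 genes. Each was among the 13812 genes with enough counts to be tested. The study compared livers of 4-month-old female mice on normal chow that carried the gene for neurotensin (*Nts*, a gut peptide hormone) or were labelled as lacking it, and asked how the liver handles energy without the hormone. Each combination of genotype and feeding was sequenced in 3 mice. Of the mice labelled *Nts*+/+, numbers 254, 257 and 323 were fed and numbers 265, 282 and 322 had no food for 22 h before collection. Of those labelled *Nts*-/-, numbers 277, 303 and 319 were fed and numbers 284, 290 and 295 had the same fast. Fed mice ate freely, and the deletion, as labelled, is of the whole animal rather than of the liver.

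p53, the protein of *Trp53*, is a transcription factor that is held low by MDM2, a ubiquitin ligase whose own gene p53 switches on. When DNA is damaged or nutrients run short, p53 is stabilised and raises genes that stop the cell cycle, of which *Cdkn1a* (the cyclin-dependent kinase inhibitor p21) is the best known. Several of these genes also answer to signals other than p53, among them FoxO factors, ATF4, glucocorticoids and NF-kB, so that their RNA is not a direct readout of p53. In the liver, fasting lowers insulin and growth signals, and sestrins (*Sesn1*) and REDD1 (*Ddit4*) are known as restraints on the growth kinase complex mTORC1.

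Total counts per mouse ran from 21999647 to 45273069. The targeted gene went against its labels: *Nts* had 0 counts in each of the 6 libraries labelled *Nts*+/+, and 46, 40 and 15 counts in fed and 12, 4 and 18 counts in fasted libraries labelled *Nts*-/-. The genotype names below are therefore those of the labels, and every direction between genotypes rests on them. Albumin and 6 other hepatocyte genes summed to between 111838 and 146580 TMM-normalized CPM in the 12 libraries. Lipogenic genes of the fed state summed to 3051 CPM in fed mouse 323 and to between 8722 and 13714 CPM in the other 5 fed mice, against 430.3 to 1570 CPM in fasted mice, so that mouse 323 stood apart from its group.

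CPM are reads of a gene relative to all reads of its library, and the TMM step also corrects for library composition. Per kilobase of each gene's reference transcript, the mean over 12 mice was highest for *Cdkn1a* (21.5 CPM per kb), followed by *Gadd45g* (13.3), *Ccng1* (10.2), *Ccng2* (9.35), *Trp53* (8.93), *Mdm2* (6.98), *Gadd45b* (5.93), *Sesn1* (5.62), *Ddit4* (3.33) and *Gadd45a* (1.65). All 10 genes were therefore transcribed in liver, and none was at 0 in any mouse. *Gadd45a* rested on the fewest reads, between 21 and 114 per mouse. Its estimated counts were not whole numbers in 11 of 12 mice, and it overlaps the gene *E230016M11Rik* (98 counts over all mice, against 670 for *Gadd45a*), so its reads were partly shared out by the counting program.

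The sequence around the start of each gene was searched for single matches to the p53 consensus. A single 10-base match does not show that a gene carries a p53 element. Elements outside the searched windows were not looked for in any member. RefSeq windows (GRCm38.p6) of 250 bases before to 50 bases after the start were found for all 10 genes, with 12 windows in all because *Cdkn1a* and *Sesn1* each have a further start. The p53 consensus decamer, the 10-base unit that p53 dimers bind, was searched on both strands. It occurred in a window of 6 of the 10 genes (*Trp53*, *Mdm2*, *Cdkn1a*, *Ccng1*, *Gadd45a* and *Sesn1*). Counted by window this was 6 of 12, against 8.36% of all 32851 promoter windows. The members were chosen as p53 targets and growth arrest genes, so this comparison is a description and not a test. No decamer was found in the windows of *Ccng2*, *Gadd45b*, *Gadd45g* and *Ddit4*. *Cdkn1a* was the only member with more than 1 match: its 2 decamers begin 73 and 51 bases before its upstream start, with 12 bases between them. The 10 bases right after the second differ from the consensus at 1 position, against 3 to 7 positions after each of the other decamers. The window of the downstream *Cdkn1a* start (chr17:29093519-29093818) held 0 decamers. Stretches are printed for the genes whose RNA changed with fasting, 5′ to 3′ on the gene's strand, with the decamers in capitals. They lie at chr17:29090859-29090978 (plus strand, the upstream start of *Cdkn1a*), chr10:117710879-117710978 (minus, *Mdm2*), chr6:67037408-67037507 (minus, *Gadd45a*) and chr10:41887219-41887318 (plus, the downstream start of *Sesn1*).
Cdkn1a: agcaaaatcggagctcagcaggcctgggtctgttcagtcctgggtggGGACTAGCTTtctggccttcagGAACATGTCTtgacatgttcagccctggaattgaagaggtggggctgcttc
Mdm2: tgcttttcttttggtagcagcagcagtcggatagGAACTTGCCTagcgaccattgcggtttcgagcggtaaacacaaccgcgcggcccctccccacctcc
Gadd45a: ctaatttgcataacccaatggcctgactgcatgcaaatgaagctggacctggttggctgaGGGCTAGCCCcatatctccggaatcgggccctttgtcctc
Sesn1: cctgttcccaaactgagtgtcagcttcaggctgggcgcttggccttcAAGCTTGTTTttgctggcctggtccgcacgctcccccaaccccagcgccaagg

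The stretch of *Gadd45b* (chr10:80929871-80930090, plus strand) is also shown, since this gene had the largest rise of the members in *Nts*+/+ livers. A link between decamers and the response to fasting was not tested. The *Gadd45b* stretch holds no p53 decamer. Its capitals mark an E-box (CACGTG, 185 bases before the start) and a TATA motif (TATAAA, 46 bases before the start).
Gadd45b: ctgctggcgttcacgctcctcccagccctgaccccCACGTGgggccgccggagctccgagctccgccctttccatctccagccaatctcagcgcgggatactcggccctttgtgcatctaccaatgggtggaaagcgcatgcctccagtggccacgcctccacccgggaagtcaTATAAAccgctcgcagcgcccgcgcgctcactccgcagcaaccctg
Over both strands, the E-box was found in the windows of 3 members (*Gadd45b*, *Gadd45g* and *Trp53*) and in 7.15% of all windows. The TATA motif was found in the same 3 members and in 13.6% of all windows. The forkhead motif GTAAACA, which FoxO factors bind, was found in *Mdm2* and at the upstream start of *Sesn1*, and in 3.65% of all windows. No 2 of these matches overlapped in a member's window. Known p53 elements in the first intron of *Mdm2* lie outside these windows.

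The first comparison asked how a 22 h fast moved these genes in *Nts*+/+ livers. Of the 10 genes, 3 rose (*Mdm2*, *Cdkn1a* and *Gadd45b*) and 0 fell at an adjusted p under 0.05 in edgeR's quasi-likelihood test, where 8.91% of all tested genes rose and 9.19% fell. At an unadjusted p under 0.05 there were 5 of the 10 members and 4489 of all 13812 tested genes. Of these 5, *Gadd45a* and *Sesn1* were lower, and *Gadd45a* passed as lower in limma-voom. The median log2 fold change of the 10 genes was 0.16, against -0.0032 over all tested genes. In libraries labelled *Nts*-/-, 1 member rose (*Gadd45b*) and 2 fell (*Gadd45a* and *Sesn1*), where 7.7% of all tested genes rose and 9.14% fell, and 7 members and 4383 of all 13812 tested genes had an unadjusted p under 0.05. There the median log2 fold change of the 10 genes was 0.0055, against -0.011 over all tested genes. Fasting thus moved single members up and others down, and not the group in one direction. Fed and fasted mice did not overlap at all for 4 members in *Nts*+/+ livers and 6 in livers labelled *Nts*-/-, shares that stand beside 36% and 35.2% of all tested genes. Because whole liver was sequenced, fewer cells of a type and less RNA per cell cannot be told apart for any of these changes.

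**Figure D1:**
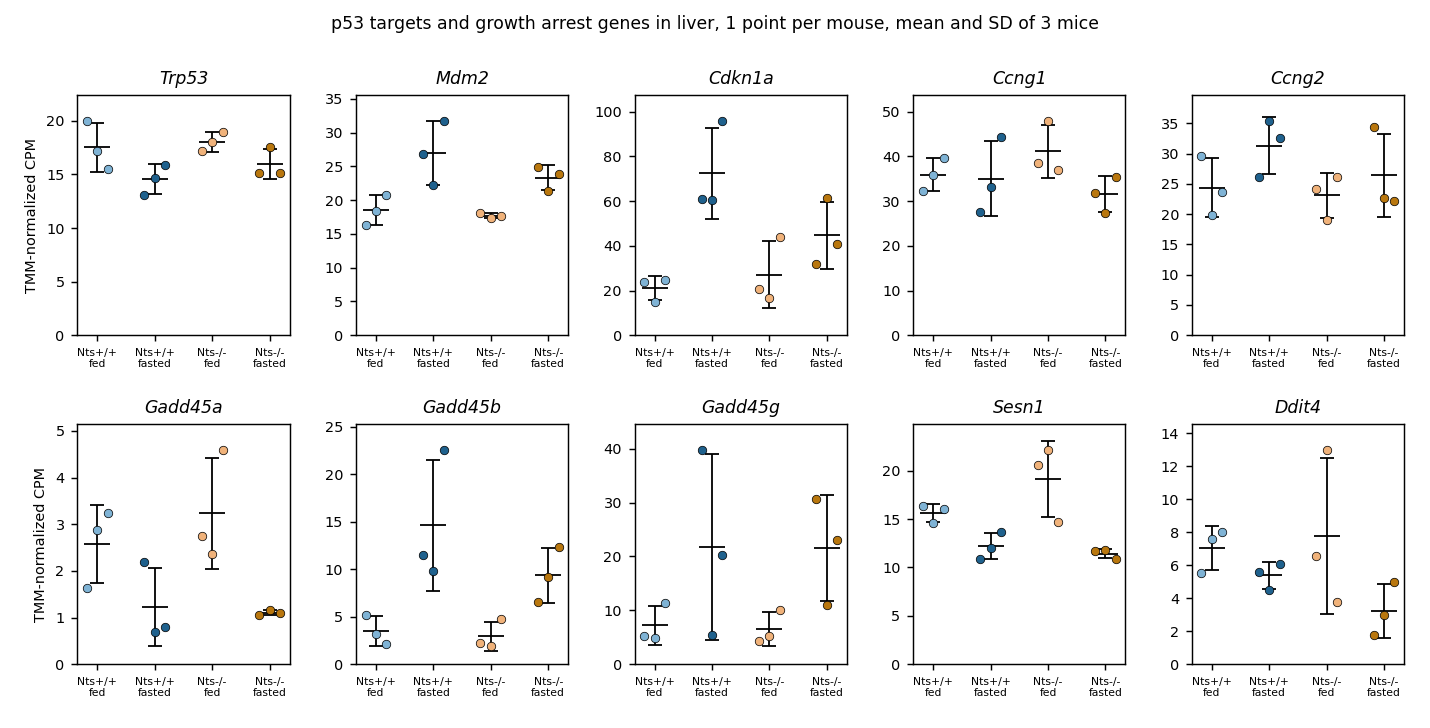
TMM-normalized CPM (vertical axis, from 0) of the 10 genes in each group, with 1 point per mouse and the mean and SD of 3 mice as bars. *Gadd45b* and *Mdm2* are higher in every fasted than in every fed mouse of the same genotype label, and the *Gadd45g* and *Ddit4* points are widely spread within groups.

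At the head of the pathway, *Trp53* itself (chromosome 11) stayed within a narrow range. Its level was 19.98, 17.2 and 15.5 CPM in fed and 13.1, 14.7 and 15.9 CPM in fasted *Nts*+/+ mice. In libraries labelled *Nts*-/- it was 17.1, 17.99 and 18.98 CPM when fed and 15.1, 17.6 and 15.2 CPM when fasted. Fed and fasted mice overlapped in both genotypes, and the log2 fold changes of -0.27 ± 0.13 (SE) and -0.18 ± 0.13 did not pass (adjusted p = 0.171 and 0.381, edgeR).

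*Mdm2*, the ligase that marks p53 for degradation, rose in *Nts*+/+ livers. It measured 16.4, 18.4 and 20.8 CPM in fed mice and 26.9, 22.3 and 31.7 CPM in fasted mice. Every fasted mouse was above every fed mouse, and the group means were 18.6 ± 2.22 and 26.98 ± 4.71 CPM (SD, n = 3), a 1.46-fold rise (log2 0.54 ± 0.14, adjusted p = 0.0166 in edgeR). The corresponding values under the *Nts*-/- label were 18.04, 17.3 and 17.7 CPM when fed and 24.9, 21.3 and 23.8 CPM when fasted. These groups did not overlap either, but the 1.32-fold difference did not pass (log2 0.40 ± 0.14, adjusted p = 0.0634). The call in *Nts*+/+ livers was narrow, since it was lost without fed mouse 254 (adjusted p = 0.0844), fed mouse 257 (0.0513) or fasted mouse 322 (0.0697). In the other genotype the Wald test of DESeq2 put it past the threshold (adjusted p = 0.0444).

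*Cdkn1a*, whose product p21 blocks cyclin-dependent kinases, was the member with the highest level per kb, and in *Nts*+/+ livers its rise was second to that of *Gadd45b*. In *Nts*+/+ mice it was 23.9, 15.01 and 24.6 CPM when fed and 60.9, 60.6 and 95.8 CPM when fasted. The lowest fasted mouse was well above the highest fed mouse. The means of 21.2 ± 5.35 and 72.4 ± 20.3 CPM (SD, n = 3) gave a 3.42-fold rise (log2 1.78 ± 0.40, adjusted p = 0.0138, edgeR), which was 1.58 on the log2 scale with an adjusted p of 0.0538 when fed mouse 257 was left out. Under the *Nts*-/- label the values were 20.6, 16.5 and 44.2 CPM when fed and 31.9, 61.4 and 40.9 CPM when fasted. Here the groups overlapped, because fed mouse 319 lay above 2 of the 3 fasted mice. The 1.65-fold difference of the means, 27.1 ± 14.9 and 44.7 ± 15.1 CPM, did not pass (log2 0.73 ± 0.39, adjusted p = 0.238), but it was 1.27 on the log2 scale and passed without mouse 319 (adjusted p = 0.0248). Mouse 319 also had the highest sum of 10 immediate early genes, the first genes that respond to stress or handling (538.5 CPM, against 93.5 to 394.6 CPM in the other 11 mice). The next highest sums were those of fed mice 254 and 277 (394.6 and 327.8 CPM), whose *Cdkn1a* was 23.9 and 20.6 CPM. Fasted mouse 322, with the highest *Cdkn1a* (95.8 CPM), had a sum of 144.7 CPM. The part of the immediate early state in the *Cdkn1a* value of mouse 319 was not tested.

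Cyclin G1 (*Ccng1*), a p53 target that works with a phosphatase on MDM2, did not change in *Nts*+/+ livers beyond the spread between mice. Fed mice were at 32.2, 35.8 and 39.7 CPM and fasted mice at 27.7, 33.2 and 44.2 CPM (log2 -0.03 ± 0.17, adjusted p = 0.914, edgeR). With the *Nts*-/- label, fed mice were at 38.5, 47.9 and 37.0 CPM and fasted mice at 31.8, 27.4 and 35.4 CPM. These 2 groups did not overlap, and the log2 fold change of -0.38 ± 0.17 did not pass (adjusted p = 0.141). Cyclin G2 (*Ccng2*), a growth-inhibiting cyclin known as a FoxO target, was at 29.5, 19.9 and 23.7 CPM in fed and 26.1, 35.4 and 32.6 CPM in fasted *Nts*+/+ mice. Under the other label it was at 24.2, 19.0 and 26.2 CPM when fed and 34.4, 22.7 and 22.2 CPM when fasted. The fed and fasted values of *Ccng2* overlapped in both genotypes, with log2 fold changes of 0.36 ± 0.20 and 0.19 ± 0.20 (adjusted p = 0.227 and 0.563).

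**Figure D2:**
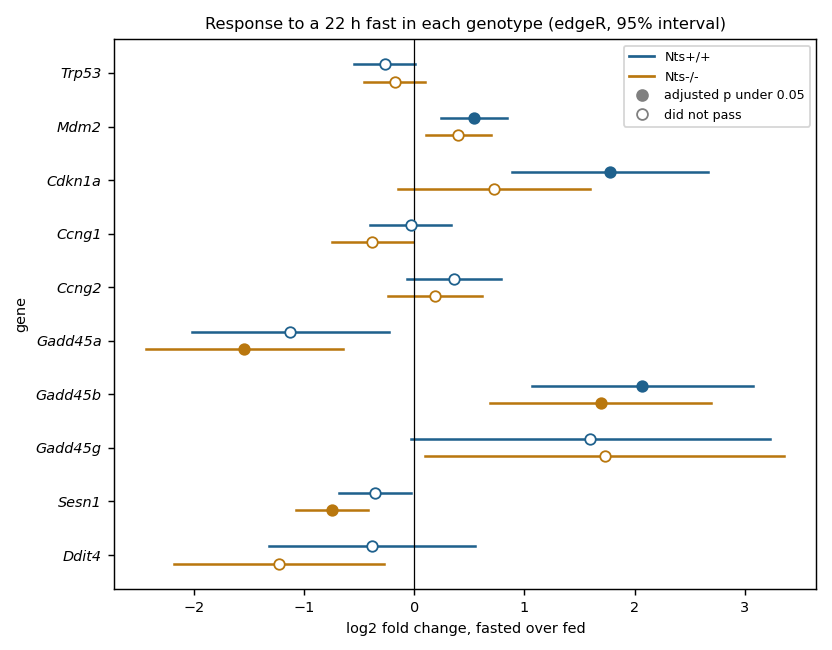
Log2 fold change from fed to fasted (horizontal axis) with its 95% interval for each gene, in *Nts*+/+ libraries (blue) and libraries labelled *Nts*-/- (brown), filled where the adjusted p was under 0.05. *Gadd45b* is filled in both genotypes, *Mdm2* and *Cdkn1a* in *Nts*+/+ only, and *Gadd45a* and *Sesn1* under the *Nts*-/- label only, while the paired intervals of every gene overlap.

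The 3 GADD45 genes, which encode small proteins that bind MAP3K4, PCNA and CDK1, went different ways. *Gadd45b*, known as an early gene of NF-kB and TGF-β signals and of liver regrowth, was 5.17, 3.13 and 2.13 CPM in fed and 11.5, 9.85 and 22.6 CPM in fasted *Nts*+/+ mice. Each fasted mouse was above each fed mouse. The 4.20-fold rise from 3.48 ± 1.55 to 14.6 ± 6.91 CPM (SD, n = 3) was the largest of the 10 genes in this genotype (log2 2.07 ± 0.45, adjusted p = 0.011, edgeR) and passed whichever mouse was left out (adjusted p of at most 0.0478). With the *Nts*-/- label it was 2.22, 1.92 and 4.71 CPM when fed and 6.60, 9.18 and 12.4 CPM when fasted. These groups did not overlap either, and the 3.23-fold rise passed (log2 1.69 ± 0.46, adjusted p = 0.0282). That second call was lost without fed mouse 277 (adjusted p = 0.115), fed mouse 303 (0.0983), fasted mouse 290 (0.0691) or fasted mouse 295 (0.0911), and with no count filter (0.0854).

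*Gadd45a*, the p53 target of the family, moved the other way. Under the *Nts*-/- label it was 2.75, 2.35 and 4.59 CPM when fed and 1.05, 1.17 and 1.09 CPM when fasted. The 3 fasted mice lay close together below all fed mice, a 2.91-fold fall (log2 -1.54 ± 0.41, adjusted p = 0.0218, edgeR). In *Nts*+/+ mice it was 1.63, 2.87 and 3.24 CPM when fed and 2.18, 0.694 and 0.786 CPM when fasted, where fasted mouse 265 lay within the fed range. The log2 fold change there was -1.12 ± 0.42 and did not pass (adjusted p = 0.0788). Both values depended on single mice and on the tool: in *Nts*+/+ livers the fall passed without mouse 265 (log2 -1.78, adjusted p = 0.00896) and in limma-voom (adjusted p = 0.0433), and under the other label it was lost without fed mouse 319 (adjusted p = 0.0674) or without fasted mouse 284 (0.0733), 290 (0.066) or 295 (0.0703).

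*Gadd45g*, known as a target of cytokine and growth hormone signals, had the widest intervals of the fold change of all members. It was 5.28, 4.89 and 11.4 CPM in fed and 39.8, 5.35 and 20.3 CPM in fasted *Nts*+/+ mice, and 4.26, 5.28 and 10.1 CPM in fed and 30.6, 11.0 and 23.0 CPM in fasted mice under the *Nts*-/- label. Fasted *Nts*+/+ mouse 282 lay within the fed range, whereas each of the other 5 fasted mice was above every fed mouse of its own label. Log2 fold changes of 1.599 ± 0.72 and 1.73 ± 0.72 were close to those of *Gadd45b*, yet did not pass (adjusted p = 0.161 and 0.136, edgeR).

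Of the genes that restrain mTORC1, *Sesn1*, a sestrin that p53 and FoxO factors switch on, was lower after fasting. With the *Nts*-/- label it was 20.6, 22.2 and 14.7 CPM in fed and 11.7, 11.8 and 10.9 CPM in fasted mice. No fasted mouse reached the fed range, and the 1.68-fold fall from 19.2 ± 3.91 to 11.4 ± 0.501 CPM (SD, n = 3) had the smallest adjusted p of any member (log2 -0.75 ± 0.15, adjusted p = 0.00515, edgeR). It passed without any 1 of the 6 mice (adjusted p of at most 0.0245). In *Nts*+/+ mice the values were 16.4, 14.6 and 16.004 CPM when fed and 10.9, 12.0 and 13.6 CPM when fasted. These did not overlap, but the log2 fold change of -0.36 ± 0.15 did not pass (adjusted p = 0.12).

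*Ddit4* (REDD1), a stress-induced inhibitor of mTORC1 that glucocorticoids and ATF4 also raise, was 5.54, 7.58 and 8.02 CPM in fed and 5.598, 4.50 and 6.10 CPM in fasted *Nts*+/+ mice. Under the *Nts*-/- label it was 6.53, 13.0 and 3.79 CPM when fed and 1.74, 2.99 and 4.98 CPM when fasted. Fed mice with this label were spread over most of the range of all 12 mice, and fed mouse 319 lay among the fasted mice. Its log2 fold changes were -0.38 ± 0.43 and -1.23 ± 0.43, neither of which passed (adjusted p = 0.577 and 0.0755, edgeR). The second passed without fed mouse 319 (log2 -1.55, adjusted p = 0.0183) or fasted mouse 295 (log2 -1.71, adjusted p = 0.0347), and in the Wald test of DESeq2 (adjusted p = 0.015). Without fed mouse 303, the highest value, it was -0.64.

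**Figure D3:**
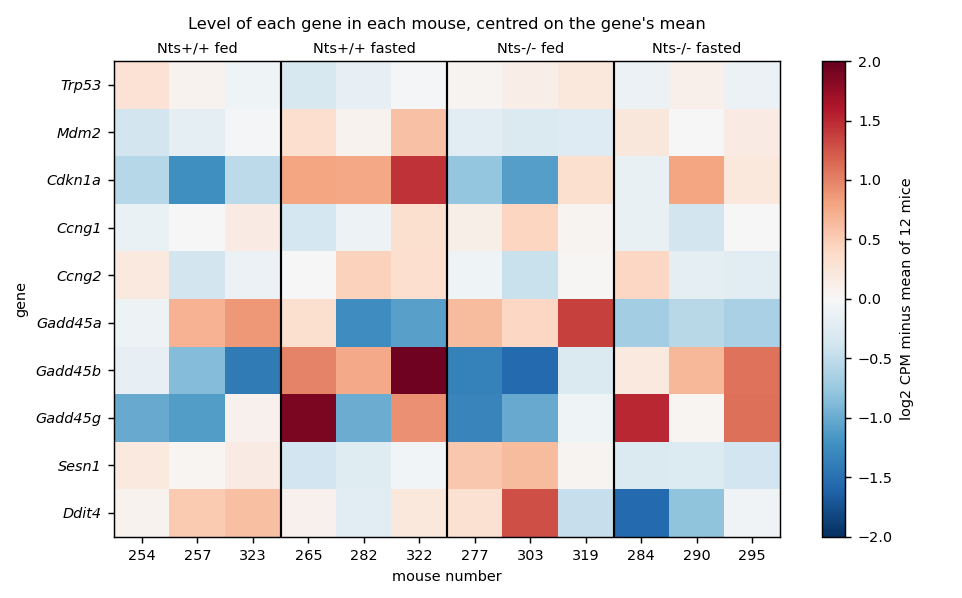
Log2 CPM of the 10 genes (rows) in each of the 12 mice (columns, by group) minus the mean of each gene, with red above and blue below the mean. *Gadd45b* and *Cdkn1a* turn from blue to red between fed and fasted *Nts*+/+ mice, *Gadd45a* and *Sesn1* turn the other way under the *Nts*-/- label, and fed mouse 319 is red for *Cdkn1a* and *Gadd45a*.

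The second comparison set libraries labelled *Nts*-/- against *Nts*+/+ in the same feeding state. No member passed in fed livers or in fasted livers (0 of 10 in edgeR, DESeq2 and limma-voom, and 0 of 10 at an unadjusted p under 0.05 in edgeR). In edgeR 0% of all tested genes were called in fed livers and 0% in fasted livers, with 876 and 685 genes at an unadjusted p under 0.05. DESeq2 called 12 and 4 genes and limma-voom 1 and 0. The values of all 10 members overlapped between genotypes in both states, where 10.7% of all tested genes did not overlap in fed livers and 12.2% in fasted livers. In fed livers *Sesn1* had the smallest p of the members (log2 0.29 ± 0.15, interval -0.03 to 0.62, adjusted p = 0.777). In fasted livers it was *Cdkn1a*, with 72.4 ± 20.3 CPM in *Nts*+/+ and 44.7 ± 15.1 CPM under the *Nts*-/- label (SD, n = 3). The log2 difference was -0.70 ± 0.39, with an interval of -1.56 to 0.17 (adjusted p = 0.917). For *Trp53* the intervals were -0.24 to 0.32 in fed and -0.15 to 0.41 in fasted livers, and for *Mdm2* they were -0.37 to 0.23 and -0.51 to 0.09. The intervals of *Gadd45g* were the widest, at -1.78 to 1.503 and -1.56 to 1.55, so that a 2-fold difference in either direction was not detectable at this spread. Intervals also reached past a 2-fold difference for *Cdkn1a* (-0.52 to 1.23 in fed livers, and in fasted livers as above) and *Gadd45a* (-0.52 to 1.17 and -1.03 to 0.84). The same held for *Gadd45b* (-1.29 to 0.77 and -1.58 to 0.30) and *Ddit4* (-0.78 to 1.07 and -1.66 to 0.25). Of the 10 genes, 4 (*Mdm2*, *Gadd45b*, *Sesn1* and *Ddit4*) lie on chromosome 10 with *Nts*, at 15.2, 21.5, 60.6 and 42.5 Mb from it. For these 4 genes, linkage to the deleted locus and the deletion itself cannot be told apart.

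**Figure D4:**
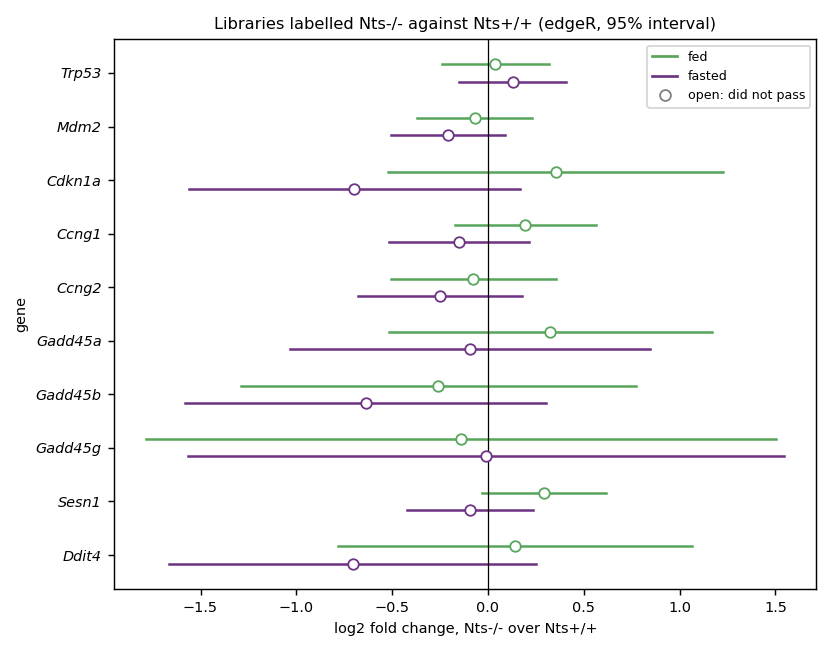
Log2 fold change between libraries labelled *Nts*-/- and *Nts*+/+ (horizontal axis) with its 95% interval for each gene, in fed (green) and fasted (purple) livers. Every interval includes 0 and no gene passed an adjusted p of 0.05.

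The third comparison asked whether the response to fasting differed between the genotype labels, since *Cdkn1a*, *Mdm2*, *Gadd45a* and *Sesn1* passed in one genotype only. No difference was called for any member or any gene in edgeR (0 of 10, and 0% of all tested genes, with 0 members and 663 genes at an unadjusted p under 0.05). DESeq2 called 3 genes and limma-voom 0, none of them a member. The difference was -1.05 ± 0.55 on the log2 scale for *Cdkn1a* (interval -2.28 to 0.18, adjusted p = 0.897), and -0.51 without fed mouse 319. It was -0.14 ± 0.20 for *Mdm2* (interval -0.56 to 0.28, adjusted p = 0.943). *Gadd45a* gave -0.42 ± 0.59 and *Sesn1* gave -0.39 ± 0.21 (adjusted p = 0.943 and 0.897). The rise of *Cdkn1a* and *Mdm2* and the fall of *Gadd45a* and *Sesn1* are therefore not shown to belong to 1 genotype.

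Other genes of the same pathways were read from lists beside the members. Every list count with fasting, here and in the paragraphs below, stands beside the shares over all tested genes. These were 8.91% higher and 9.19% lower in *Nts*+/+ livers, and 7.7% higher and 9.14% lower under the *Nts*-/- label. No list was tested against these shares. Of 27 other p53 targets, 25 were tested. In *Nts*+/+ livers 2 rose (*Ei24* and *Sesn2*) and 1 fell (*Bbc3*), and under the *Nts*-/- label 2 rose (*Ei24* and *Perp*) and 2 fell (*Bbc3* and *Plk2*), with median log2 fold changes of 0.03 and -0.09. *Ei24*, which encodes a membrane protein of the endoplasmic reticulum, went from 241.1 ± 14.6 to 365.7 ± 42.6 CPM in *Nts*+/+ livers (SD, n = 3, log2 0.60 ± 0.14, adjusted p = 0.00957 in edgeR). *Bbc3*, the cell death gene PUMA, fell by 0.80 and 1.32 on the log2 scale in the 2 genotypes (adjusted p = 0.0445 and 0.00402). *Sesn2*, the sestrin that ATF4 raises, had log2 fold changes of 0.86 and 0.75 (adjusted p = 0.0383 and 0.0706), the opposite sign to *Sesn1*. *Plk2*, a kinase gene that p53 raises, had log2 fold changes of -0.42 and -1.31 (adjusted p = 0.322 and 0.00738). *Perp* was named after its value was seen, as the other gene of that count.

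Among 17 tested regulators of p53 (of 18), *Atr*, the kinase that senses stalled replication, rose and *Chek2*, a checkpoint kinase, fell in both genotypes, and *Chek1* fell under the *Nts*-/- label. *Chek2* was low throughout (1.27 ± 0.0572 CPM in fed and 0.466 ± 0.183 CPM in fasted *Nts*+/+ livers, SD, n = 3). Its log2 fold changes were -1.39 ± 0.33 and -1.32 ± 0.33 (adjusted p = 0.0112 and 0.0147, edgeR). *Chek1* was lower still under the *Nts*-/- label, at 0.419 ± 0.150 CPM in fed and 0.136 ± 0.0447 CPM in fasted livers (SD, n = 3). The fasted *Chek1* values ran from 0.0945 to 0.183 CPM, near the level of 3 counts, so that fall rests on few reads. None of the 4 tested genes of 6 other CDK inhibitor genes passed in either genotype (unadjusted p under 0.05 only for *Cdkn2d* in both and *Cdkn2c* and *Cdkn1c* in *Nts*+/+ livers). Of 5 anti-proliferative BTG and TOB genes, *Tob2* rose in *Nts*+/+ livers (log2 0.77 ± 0.19, adjusted p = 0.0139) and 0 passed under the other label (0 also at an unadjusted p under 0.05).

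Of 15 tested cell cycle genes (of 17), cyclins, kinases and replication genes with the restraint *Rb1* among them, 3 fell in *Nts*+/+ livers (*Ccnd2*, *E2f1* and *Top2a*) and 0 rose, although 4 were higher at an unadjusted p under 0.05, and 1 rose and 6 fell under the *Nts*-/- label (*Ccnd3* rose, and *Ccnd1*, *Ccnd2*, *E2f1*, *Mki67*, *Top2a* and *Cdk1* fell). *E2f1*, the factor that starts DNA synthesis, went from 2.85 ± 0.0478 to 1.07 ± 0.470 CPM and from 2.89 ± 0.420 to 0.878 ± 0.298 CPM (SD, n = 3, adjusted p = 0.00909 and 0.00335, edgeR). *Ccnd1*, cyclin D1, went from 94.9 ± 18.8 to 44.4 ± 8.65 CPM under the *Nts*-/- label (log2 -1.10 ± 0.22, adjusted p = 0.00491), and had a log2 fold change of -0.62 ± 0.22 in *Nts*+/+ livers (adjusted p = 0.0625). *Ccnd3*, *Mki67* and *Cdk1* were named here after their values were seen.

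Among 12 other restraints of mTORC1, *Sesn2* rose and *Ddit4l*, the close relative of *Ddit4*, fell in *Nts*+/+ livers, and *Ddit4l* and *Depdc5* fell under the *Nts*-/- label. *Ddit4l* fell by 1.05 and 1.49 on the log2 scale (adjusted p = 0.0309 and 0.00658). Of 9 tested GADD45 partners (of 10), *Map3k4*, the kinase that GADD45 proteins activate, fell in both genotypes (log2 -0.43 ± 0.14 and -0.72 ± 0.14, adjusted p = 0.0492 and 0.00375). *Mapk8* rose in *Nts*+/+ livers and *Cdk1* fell under the other label.

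Signals that also reach these genes were read from the same samples. Of 15 FoxO-linked genes, 2 rose and 1 fell in *Nts*+/+ livers (*Txnip* and *Bcl2l11*, and *Foxo4*) and 2 rose under the *Nts*-/- label (*Txnip* and *G6pc*). At an unadjusted p under 0.05, 4 were higher and 1 lower in *Nts*+/+ livers, and 4 higher and 2 lower under the other label. Of 8 ATF4-linked genes, 3 rose in *Nts*+/+ livers (*Trib3*, *Psat1* and *Sesn2*) and 2 under the other label (*Trib3* and *Atf5*), with median log2 fold changes of 0.39 and 0.73. At an unadjusted p under 0.05, 4 were higher and 1 lower in *Nts*+/+ livers, and 4 higher and 0 lower under the other label. Over all 13812 tested genes, 4489 and 4383 had such a p. *Trib3*, an ATF4 target, went from 2.53 ± 0.192 to 7.11 ± 0.550 CPM in *Nts*+/+ livers (SD, n = 3, adjusted p = 0.00557, edgeR). Of 8 glucocorticoid targets, 0 passed in *Nts*+/+ livers (3 were higher at an unadjusted p under 0.05) and *Sgk1* rose under the *Nts*-/- label (log2 0.98, adjusted p = 0.0321), with median log2 fold changes of 0.67 and 0.61. Of 10 tested immediate early genes, 0 passed in either genotype (1 in each was higher at an unadjusted p under 0.05), with summed levels of 93.5 to 538.5 CPM in fed and 99.6 to 283.6 CPM in fasted mice. The part of these signals in the members' values was not tested.

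**Figure D5:**
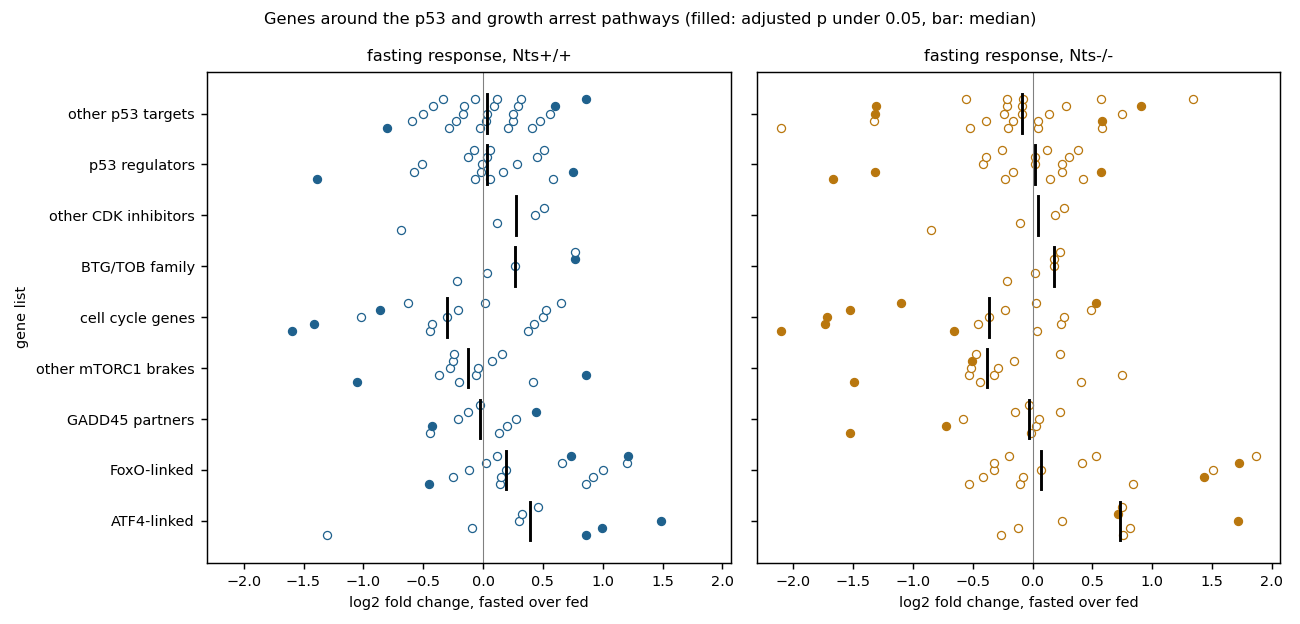
Log2 fold change from fed to fasted (horizontal axis) of the tested genes in 9 lists around the members, in *Nts*+/+ libraries (left) and libraries labelled *Nts*-/- (right), filled where the adjusted p was under 0.05, with the list median as a black bar. Points of the other p53 targets lie on both sides of 0, and 3 cell cycle genes on the left and 6 on the right are filled below 0.

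Other states of the liver moved with fasting in the same samples. Of 13 tested clock genes, 3 rose in *Nts*+/+ livers and 4 under the *Nts*-/- label, and *Npas2* fell in both (log2 -1.17 and -1.63, adjusted p = 0.0146 and 0.00271). The sum of the clock list was 195.3 to 245.1 CPM in fed and 252.1 to 348.6 CPM in fasted mice, without overlap. Kupffer cell markers summed to 498.8 to 559.3 CPM in fed and 244.4 to 421.8 CPM in fasted *Nts*+/+ livers, where 2 of 8 (*Clec4f* and *C1qa*) fell and 6 were lower at an unadjusted p under 0.05, and to 321.3 to 418.6 and 315.0 to 474.4 CPM under the other label, where 0 of 8 passed (1 was higher and 1 lower at an unadjusted p under 0.05). Stellate cell markers summed to 226.7 to 249.1 CPM in fed and 185.3 to 209.5 CPM in fasted *Nts*+/+ livers (2 of 6 fell), and to 196.3 to 273.3 and 189.7 to 204.8 CPM under the other label (4 of 6 fell). Sinusoidal endothelial markers summed to between 142.4 and 206.7 CPM in fed and between 121.2 and 145.7 CPM in fasted livers. Of these 6 markers, *Lyve1* rose and *Clec4g* fell in *Nts*+/+ livers, and *Clec4g* and *Oit3* fell under the other label. Cholangiocyte markers summed to between 33.0 and 49.3 CPM in fed and between 13.6 and 29.3 CPM in fasted livers, without overlap. Of 4 tested (of 5), *Spp1* fell in *Nts*+/+ livers and *Sox9* under the other label. Lymphocyte and neutrophil markers were at most 9.55 and 6.61 CPM in any mouse, and 0 of them passed or had an unadjusted p under 0.05. Whether these cell types carried part of the members' changes was not tested.

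To show what moved most like the members, the member with the smallest p in each role was correlated with all tested genes over the 12 mice. These are descriptions over samples that share the fed and fasted groups. *Mdm2* was most like *Srpr*, *C2cd2l* and *Stt3b* (Pearson r = 0.935, 0.935 and 0.932 of log2 CPM, n = 12 mice), and *Cdkn1a* was most like *Spryd3*, *Eef2kmt* and *Cd83* (r = 0.923, 0.914 and 0.903). *Gadd45b* was most like *Ftsj1*, *Baiap2l1* and *Cct2* (r = 0.943, 0.937 and 0.931). *Sesn1* was most like a gene without a symbol (ENSMUSG00000109771), *2610002M06Rik* and *Clcn6* (r = 0.977, 0.962 and 0.954). None of these 12 genes is on the p53, FoxO, ATF4 or cell cycle lists. Those lists hold only a small part of all tested genes, so their absence here cannot show that the members differ from them. Of the 12 genes, *C2cd2l*, *Baiap2l1*, *Cct2*, *2610002M06Rik* and *Clcn6* passed in both fasting comparisons. The members were themselves picked by smallest p, so these calls are not separate evidence of a link to fasting.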

How the data were processed

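Total RNA from snap-frozen livers of 12 mice was sequenced. The authors deposited expected counts per gene from RSEM, after Trimmomatic, with GRCm38 positions. These estimated counts were not scaled, versions were not given in the sources used here, and 6.94% to 8.66% of values per mouse were not whole numbers. The strand setting was not given in the sources used here.

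Groups came from the sample titles. Counts were rounded and fitted in edgeR 4.0.16 (R 4.3.3: filterByExpr, TMM, 1 mean per group, robust quasi-likelihood test, Benjamini-Hochberg over 13812 genes). This test was chosen here, because the paper cites other work for its RNAseq methods. Contrasts were fasting in each genotype, genotype in each feeding state, and their difference. P-values set a difference between groups against the spread between mice, estimated over all groups with information shared between genes. The floor of 3 counts was 0.0663 to 0.136 CPM, which covers counting error only. Alternatives were RLE and upper-quartile normalization, DESeq2 1.42.0, limma-voom (limma 3.58.1), other filters and thresholds, only the groups compared, and each mouse left out. On simulated counts for fasting in *Nts*+/+ livers (13644 genes), 78 of 99 genes changed 4-fold and 51 of 100 changed 2-fold were called. Far fewer genes were changed there than the 2501 that edgeR called in the real comparison. The adjustment of p therefore differs, and these shares do not carry over to the data.

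All 10 members are named. From each other list, counts and up to 4 genes with the smallest p over the fasting comparisons are named, and for the member of each role with the smallest p the 3 genes with the highest correlation. The members and lists were chosen with earlier results of these data known. Transcript lengths came from Ensembl canonical transcripts and promoter sequences from RefSeq.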

Additional observations from a re-analysis of the deposited data

How the results depend on the processing

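In *Nts*+/+ livers 3 members passed with fasting, and the count stayed between 2 and 4 under every alternative that kept all mice. Under the *Nts*-/- label it was also 3, 5 in the Wald test of DESeq2 and at an adjusted p under 0.10, and 2 with no count filter and when a log2 change of 1 or more in size was also required. With each mouse left out in turn, it was between 1 and 4 in *Nts*+/+ livers (1 without fed mouse 257) and between 1 and 4 under the *Nts*-/- label (1 without fasted mouse 290). Both genotype comparisons and the difference of the responses gave 0 members under all alternatives run. Fed mouse 323, which stood apart, left the count in *Nts*+/+ livers at 3 when omitted.

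Directions that turned belonged to values that had not passed. Between genotypes, limma-voom gave -0.0038 for *Ddit4* in fed livers and 0.15 for *Gadd45a* and 0.34 for *Gadd45g* in fasted livers, where *Gadd45g* was 0.0017 with upper-quartile factors and 0.0089 with at least 10 counts in every mouse. The cause was not tested.

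Leaving out each mouse, the log2 fold change with fasting ran from -0.24 to 0.12 for *Ccng1* in *Nts*+/+ livers and from -0.0418 to 0.31 for *Ccng2* under the *Nts*-/- label. Between genotypes in fed livers it ran from -0.0434 to 0.14 for *Trp53*, -0.16 to 0.0218 for *Mdm2*, -0.19 to 0.61 for *Cdkn1a*, -0.20 to 0.0808 for *Ccng2*, -0.0071 to 0.52 for *Gadd45a*, -0.75 to 0.14 for *Gadd45b*, -0.59 to 0.35 for *Gadd45g* and -0.44 to 0.47 for *Ddit4*. In fasted livers it ran from -0.30 to 0.0516 for *Ccng1*, -0.37 to 0.56 for *Gadd45a* and -0.46 to 0.74 for *Gadd45g*. For the difference of the responses it ran from -0.0020 to 0.17 for *Trp53*, -0.69 to 0.24 for *Gadd45a*, -0.77 to 0.11 for *Gadd45b* and -0.36 to 0.88 for *Gadd45g*.

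No paired analysis was possible because the labels give each mouse a number of its own and no litter, although littermates were used. Depth limits *Gadd45a* most, at 21 to 114 counts per mouse.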
